A study of Arabidopsis thaliana with 24 samples.

Results

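The nitrate response of roots of the Arabidopsis thaliana mutant nlp7 was measured on 6 of the 24 Affymetrix ATH1 arrays of a study of 4 genotypes. These 6 arrays are all the columns labelled nlp7, 3 at 35 min and 3 at 0 min, and they were chosen by those labels and by no measured value. The 35 min roots came from nlp7 seedlings given 25 mM KNO3 at pH 5.5 for 35 min, and the 0 min roots from nlp7 seedlings taken before that step. The other arrays hold the same times in nlp6, in the double mutant nlp6nlp7 and in the wild type Col-0, with 3 arrays per group. Seedlings of every group had grown with 12.5 mM ammonium succinate as nitrogen source for 9 days, so ammonium was present before nitrate in all of them. Each replicate is a separate biological sample of about 200 seedlings from 3 boxes, per the labels. A potassium salt without nitrate was given to none of the groups, so nitrate cannot be told apart from elapsed time, handling and potassium in any response below. The labels name the mutants by gene only, without an allele.

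NLP7 is a NIN-like transcription factor that acts at the top of the primary nitrate response, the rapid change in transcripts that follows nitrate supply. NLP7 binds nitrate and gathers in the nucleus when nitrate is supplied, where it binds nitrate-responsive elements near genes for nitrate transport, nitrate reduction, the supply of reductant and further regulators. NLP6 is its closest relative in Arabidopsis, and both proteins act on many of the same targets. Ammonium-grown nlp7 roots are therefore used to ask how much of the response to nitrate takes place without NLP7.

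Expression is given as the deposited intensity of a probe set, the group of short probes that stands for a transcript, on the authors' linear scale. Each response is the difference of the group means at 35 min and 0 min in log2(intensity + 26), so that a value of 1 is a 2-fold change of intensity + 26 and dim genes appear less changed than they are. Errors after a response are standard errors of the limma model, which pooled the spread of 24 arrays in 8 groups. A probe set was called when its limma p-value, adjusted by the Benjamini-Hochberg method over 22714 probe sets, was under 0.05. Array medians of the 6 nlp7 arrays were 185, 181 and 173 at 35 min and 194, 179 and 186 at 0 min. NLP7 has no probe set named in the array's gene table, so the mutated gene could not be checked by name. The unnamed probe set 254195_at, picked with its values in view as the one among unnamed probe sets with the lowest summed difference of nlp7 from Col-0 over both times, lay between 11 and 32 on the 6 nlp7 arrays and between 329 and 622 on the 6 Col-0 arrays. Of the root markers, the root hair expansins EXPA7 and EXPA18 were measured and lay between 385 and 752 on the nlp7 arrays. The leaf markers PRK and SBPASE, both of the Calvin cycle, lay between 1 and 70 there, while RCA, the Rubisco activase, lay between 276 and 400 and LHCB4.1, an antenna protein, between 89 and 216. None of these 6 marker genes, and none of the 4 measured reference genes, was called in nlp7. The reference gene GAPC2 had a response of 0.34 ± 0.11 there (adjusted p = 0.095, limma). It was the only 1 of the 4 called in the other genotypes, higher in Col-0 (0.77), nlp6 (0.70) and nlp6nlp7 (0.58). Intensity in whole roots does not separate a change in the number of cells of a type from a change in RNA per cell.

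Replicate 1 of nlp7 stood apart from replicates 2 and 3 at both times, and defence-related transcripts were among those highest in it. The chitinase family gene AT2G43590 had intensities of 12193, 2752 and 1461 in replicates 1, 2 and 3 at 35 min, against 14226, 3081 and 1775 at 0 min. The peroxidase gene AT5G64120 had 3418, 622 and 395 at 35 min, against 4123, 865 and 563 at 0 min. The germin-like gene AT5G38910 had 740, 128 and 12 at 35 min, against 879, 98 and 43 at 0 min. These genes are among the 5 named ones furthest above replicates 2 and 3 in replicate 1 at both times. That replicate 1 was high before and after nitrate alike is therefore fixed by the choice. The responses of these genes were not called by limma without a replicate block. AT1G26380 and AT1G26390, of the berberine bridge enzyme-like oxidase family, had the same order of replicates, with 1297 and 1852 in replicate 1 at 0 min and 75 to 263 in the others. In the 18 arrays of the other genotypes AT5G64120 stayed between 297 and 1025, and AT2G43590 between 907 and 2688. Genes furthest below in replicate 1 at both times, by the same rule, were AT3G28760, AT5G61290, 2A6, AT4G37850 and AT1G66860. Of these 2A6, an oxygenase of the 2-oxoglutarate-dependent family, had 854, 1748 and 1624 at 35 min and 758, 1736 and 1579 at 0 min. Over all probe sets, 139 were at least 2-fold above and 8 at least 2-fold below the mean of the other replicates at both times in replicate 1. Replicate 3 had 2 above and 56 below, replicate 2 had 3 above and 4 below, and no replicate of another genotype had more than 11 in either direction. Departures of replicate 1 at 0 min and at 35 min correlated at 0.469 across probe sets, which are not independent replicates. The part of these departures in the responses was not tested beyond giving each count with and without replicate 1.

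**Figure D1:**
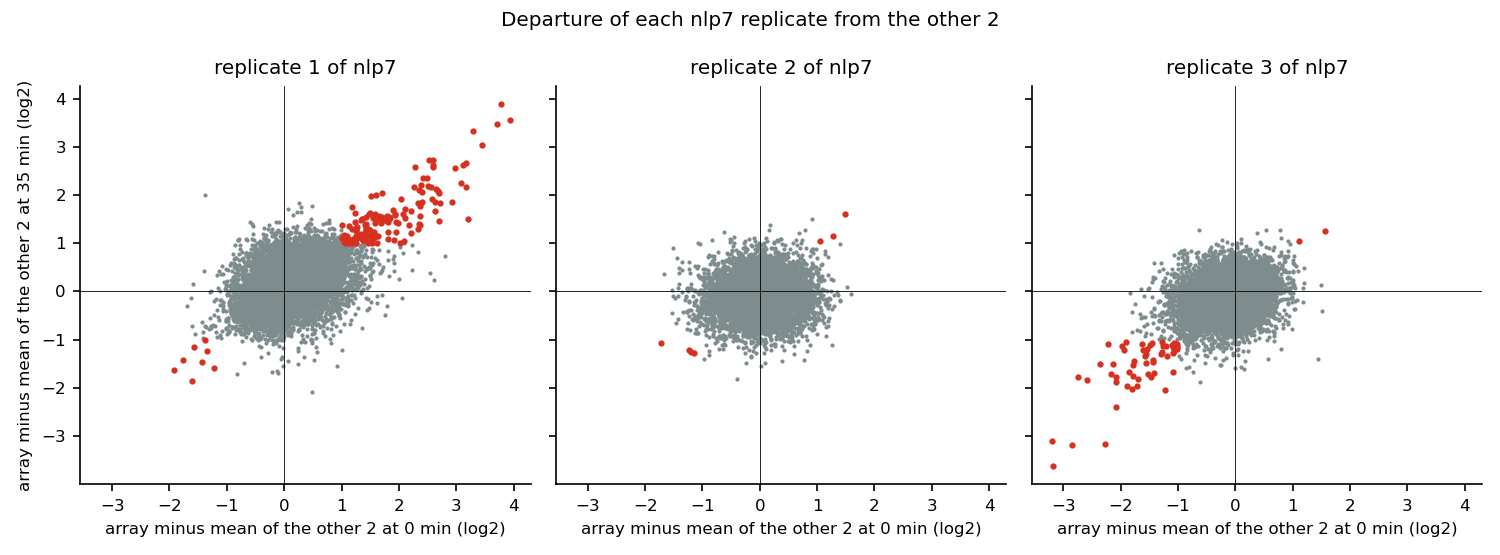
Departure of each nlp7 array from the mean of the other 2 replicates of its time, at 0 min (horizontal axis) and 35 min (vertical axis), in log2 of intensity + 26, for replicates 1, 2 and 3. Each point is a probe set, and red points lie at least 2-fold from the other replicates in the same direction at both times. Replicate 1 has 139 such points above and 8 below, replicate 2 has 3 and 4, and replicate 3 has 2 and 56.

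Transcripts of nlp7 roots differed in both directions between 35 min and 0 min, with strong rises of some genes of carbon metabolism and some nitrate-linked regulators. Of 22714 probe sets, 1163 (5.12%) were called by limma at an adjusted p under 0.05, of which 571 (2.51%) were higher and 592 (2.61%) lower at 35 min. A change of at least 2-fold was called for 210 higher (0.925%) and 101 lower (0.445%) probe sets. On 561 of the 571 higher probe sets all 3 arrays at 35 min lay above all 3 at 0 min, a pattern held by 6.34% of all probe sets. On 578 of the 592 lower ones all 3 lay below, a pattern held by 9.25% of all. The calls rest on these same arrays, so the 561 and 578 are a description and lend the calls no support. Without replicate 1 at both times 845 probe sets (3.72%) were called, 431 higher (1.9%) and 414 lower (1.82%). Of the 1163, 781 were also called without replicate 1, 382 were not, and all 1163 kept their direction. Removing replicate 2 or replicate 3 in the same way left 779 and 769 calls.

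The most induced named genes were taken as the 15 highest called responses among genes whose arrays at the 2 times do not overlap, so that their separation is fixed by the choice. They rose 5.27-fold to 20.7-fold in intensity + 26. AT5G10210 led them with intensities of 2123, 1486 and 2351 at 35 min, against 118, 55 and 49 at 0 min (log2 response 4.37 ± 0.25, adjusted p = 1.8e-10, limma). PGM, annotated as a phosphoglycerate mutase, had 7456, 5640 and 6579 at 35 min, against 349, 245 and 334 at 0 min (4.30 ± 0.14, adjusted p = 5.8e-14, limma). AT4G32950, of the family of type 2C protein phosphatases, had 7564, 4223 and 4545 at 35 min, against 331, 223 and 303 at 0 min (4.1 ± 0.23, adjusted p = 1.1e-10, limma). Replicate 1 was the highest of the 3 arrays for PGM and AT4G32950 at both times. Their lowest arrays at 35 min, 5640 and 4223, lay far above their highest at 0 min, 349 and 331. AT2G48080, of the 2-oxoglutarate and iron-dependent oxygenase family, had tight replicates, with 3070, 2815 and 3245 at 35 min, against 165, 163 and 164 at 0 min (4.01 ± 0.09, adjusted p = 1.6e-16, limma). AT3G07350 had 1969, 1598 and 1572 at 35 min, against 176, 83 and 78 at 0 min (3.71 ± 0.23).

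The protein kinase gene WNK7 followed with intensities of 977, 1020 and 808 at 35 min, against 117, 116 and 91 at 0 min (2.84 ± 0.14, adjusted p = 2.6e-11, limma). PGD3, a 6-phosphogluconate dehydrogenase of the oxidative pentose phosphate pathway that supplies NADPH, had 7724, 7916 and 8926 at 35 min, against 1134, 1536 and 1258 at 0 min (2.63 ± 0.12). AT1G80380, the glycerate kinase gene of the photorespiratory pathway, had 1550, 1208 and 1337 at 35 min, against 329, 193 and 175 at 0 min (2.47 ± 0.20). Replicate 1 was the brightest array of AT1G80380 and the dimmest of PGD3 at each time. BAT1, an acyltransferase that acts on brassinosteroids, had 4521, 4558 and 4886 at 35 min, against 886, 866 and 835 at 0 min, and had the smallest standard error of the 15 (2.4 ± 0.07). The other members were the AAA-type ATPase gene AT3G28510 (3.13), AT3G47980 (3.02), AT5G54170 (2.89), the thaumatin family gene AT4G36010 (2.75), AT1G49500 (2.75) and AT5G28610 (2.5), as log2 responses. A second probe set of AT3G47980 had a response of 2.35. All 15 were called without replicate 1 as well, with adjusted p of at most 3.6e-05 in limma. With a pseudocount of 103 in place of 26 the responses of AT3G28510, AT3G47980 and AT5G28610 were 2.03, 2.00 and 1.65. Among probe sets without a gene name, 265475_at (5.07) and 264859_at (4.45) had the highest responses, at 10973, 11004 and 12151 against 408, 234 and 319, and at 8160, 8467 and 9599 against 330, 409 and 387 (35 min against 0 min).

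**Figure D2:**
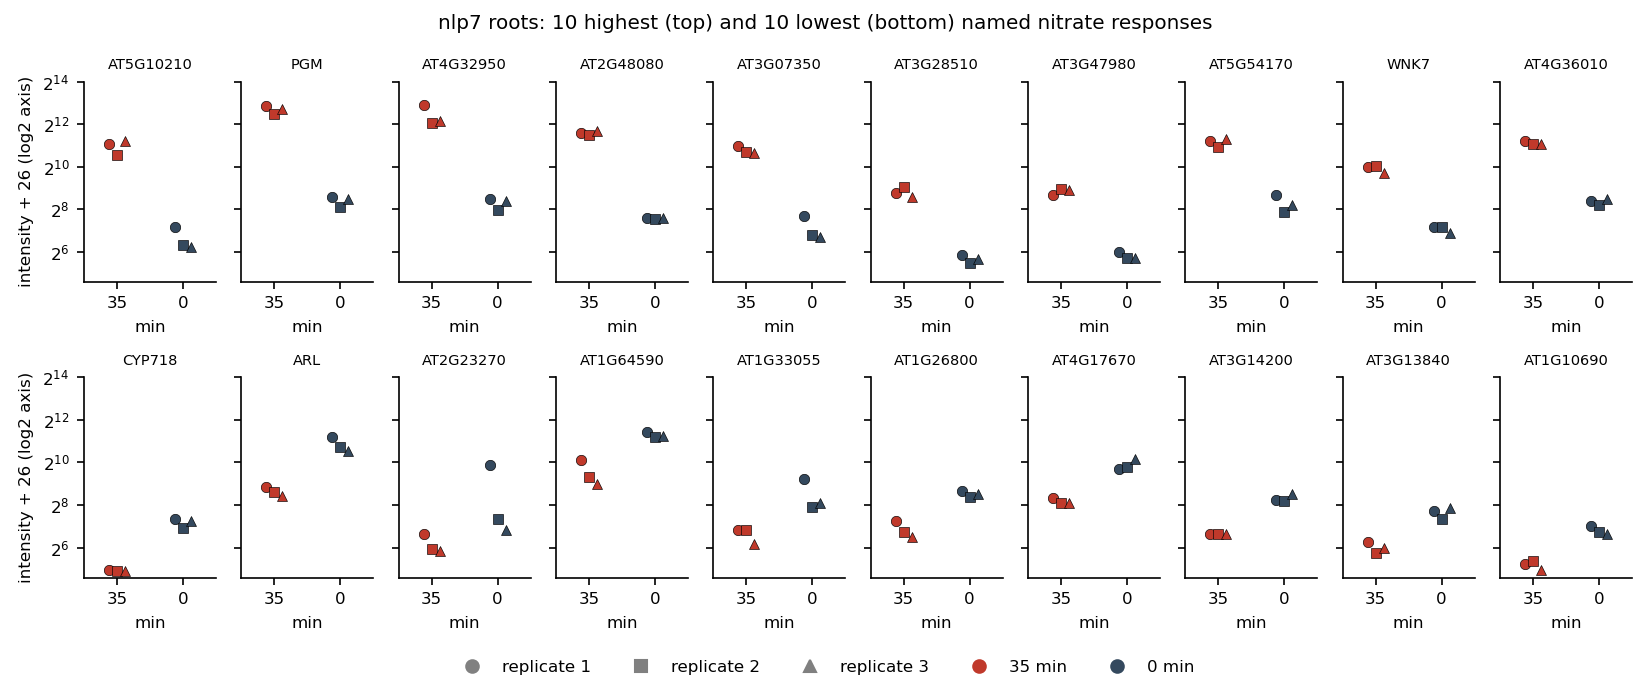
Intensity + 26 on a log2 axis of the 10 most induced (top) and 10 most lowered (bottom) named genes on the 6 nlp7 arrays, with 35 min in red and 0 min in dark blue and a marker shape for each replicate. The 3 arrays at 35 min lie on the same side of the 3 at 0 min in each gene, as the rule that chose the genes requires. AT2G23270 has its highest point, 915 before 26 is added, in replicate 1 at 0 min.

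The 15 most lowered named genes, taken by the same rule, fell 2.54-fold to 4.79-fold in intensity + 26, a narrower range than that of the induced genes. SUFE2, described further down, had a response within this range but overlapping arrays, and so is not among them. CYP718, a cytochrome P450, fell to 5, 4 and 4 at 35 min, against 137, 97 and 127 at 0 min (log2 response -2.26 ± 0.15, adjusted p = 2.9e-09, limma). Since 3 arrays lay near the lower end of the scale, the size of this response depends on the pseudocount, with -4.06 at 3 and -1.05 at 103. ARL, which promotes cell expansion downstream of brassinosteroids, fell to 436, 371 and 317 at 35 min, against 2350, 1661 and 1437 at 0 min (-2.18 ± 0.18, adjusted p = 6.1e-08, limma). The short-chain dehydrogenase-like gene AT1G64590 had 1076, 613 and 489 at 35 min, against 2719, 2308 and 2413 at 0 min (-1.81 ± 0.21). In ARL and AT1G64590 replicate 1 was again the highest array at each time. The RING-type ubiquitin ligase gene AT1G26800 had 125, 80 and 65 at 35 min, against 382, 307 and 339 at 0 min (-1.70 ± 0.18). AT4G17670, a small zinc finger gene of the FLZ family, had 298, 249 and 249 at 35 min, against 797, 848 and 1127 at 0 min (-1.69 ± 0.17). AT5G01210, of the BAHD acyltransferase family, had 598, 577 and 655 at 35 min, against 1698, 1965 and 1397 at 0 min (-1.42 ± 0.12). AT1G26800 was likewise highest in replicate 1 at each time.

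Further members with log2 responses between -1.67 and -1.34 were the J-domain gene AT3G14200 (-1.66), the GRAS family gene AT3G13840 (-1.64), AT1G10690 (-1.63), the TIR-type resistance gene AT1G72890 (-1.46), AT4G10270 (-1.42), AT1G78410 (-1.38) and the acetyltransferase-like gene AT5G67430 (-1.35). AT1G10690, at 5 to 15 at 35 min, moved between -2.81 and -0.74 with pseudocounts of 3 and 103. AT3G13840 was at -0.97, AT4G10270 at -0.83 and AT5G67430 at -0.82 with a pseudocount of 103. The calls of 3 genes in the group rested on single replicates. AT2G23270 had 73, 35 and 32 at 35 min, against 915, 136 and 86 at 0 min, and its response of -1.87 ± 0.50 was -1.18 without replicate 1 (adjusted p = 0.027, limma) and was not called without replicate 2. AT1G78410, of the VQ motif family, had 13, 41 and 2 at 35 min, against 148, 60 and 61 at 0 min, and was not called without replicate 1 (adjusted p = 0.28, limma) or without replicate 3. AT5G67430 was not called without replicate 2 or without replicate 3. The lowest responses among probe sets without a gene name were those of 258487_at (-2.39) and 246821_at (-2.14). The first had 137, 123 and 124 at 35 min, against 1014, 624 and 751 at 0 min, and the other 311, 117 and 118 at 35 min, against 1699, 552 and 568 at 0 min.

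Enzymes that supply reductant and carbon rose together in nlp7 apart from a single isoform. Of 20 genes on the list 5 have a named probe set, and 4 of them were called, all higher, against a background of 2.51% of all probe sets. This list and those below were chosen with earlier results of these data known. Their counts beside the backgrounds are therefore a description and not a test. PGD1, the second 6-phosphogluconate dehydrogenase, had 15829, 14595 and 15762 at 35 min, against 3809, 4786 and 4223 at 0 min (1.85 ± 0.09, adjusted p = 2.8e-11, limma). PGD2, the peroxisomal isoform, had 5626, 5570 and 5936 at 35 min, against 5924, 5866 and 6025 at 0 min, with overlapping times and a response of -0.06 ± 0.07. The median of the 5 was 2.47, beside -0.02 over all probe sets. The glucose-6-phosphate dehydrogenases and the root ferredoxin reductases that pass this reductant on have no named probe set.

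Nitrate transport and reduction could be followed only in part. NITR2;1, which moves nitrite into plastids for the next step of reduction, rose to 341, 309 and 321 at 35 min, against 85, 70 and 22 at 0 min (2.1 ± 0.25, adjusted p = 1.0e-05, limma). The transporter genes NRT2.5 and NPF6.2 had responses of -0.34 ± 0.24 and -0.31 ± 0.17 and were not called. These 3 are the measured members of 24 transport genes, with a median of -0.31. None of the 16 genes for nitrate reduction and ammonium assimilation has a named probe set, NIA1, NIA2 and NIR1 among them, so their response was not analysed here.

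Regulators that act downstream of nitrate rose as well. Of 33 genes on the list 5 were measured, 4 were called higher and none lower, against backgrounds of 2.51% and 2.61% of all probe sets, and the median was 1.70. HHO2 and HHO3, GARP-type repressors that curb nitrogen starvation genes, rose to 1002, 899 and 966 at 35 min, against 277, 278 and 272 at 0 min (1.70 ± 0.08), and to 1822, 1794 and 1760 at 35 min, against 520, 489 and 438 at 0 min (1.84 ± 0.10). HHO1 was dim, with 50, 60 and 31 at 35 min, against 8, 10 and 2 at 0 min (1.15 ± 0.22, adjusted p = 0.0025, limma), and its size moved between 2.44 and 0.45 with pseudocounts of 3 and 103. The fourth was WNK7. NRG2, a nuclear regulator of nitrate signalling, had 505, 562 and 559 at 35 min, against 580, 692 and 571 at 0 min (-0.17 ± 0.13), and was not called.

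CC-type glutaredoxins, plant-specific redox proteins that respond to nitrate and limit root growth, included 6 higher and no lower calls among 14 measured genes of 17, against the same backgrounds of 2.51% and 2.61%. GRXS4 had 861, 393 and 554 at 35 min, against 151, 80 and 101 at 0 min (2.17 ± 0.30, adjusted p = 5.2e-05, limma). GRXS6 had 438, 339 and 352 at 35 min, against 96, 78 and 41 at 0 min (2.08 ± 0.23, adjusted p = 2.8e-06, limma). The higher arrays of GRXS4 were those of replicate 1 at each time, and the times did not overlap in either gene. GRXS8 (1.93), GRXS3 (1.34), ROXY2 (0.89) and GRXS5 (0.83) were called too, but ROXY2 and GRXS5 not without replicate 1 (adjusted p = 0.14 and 0.061, limma) or without replicate 3. GRXS3, GRXS4, GRXS5 and GRXS8 are near-identical neighbouring copies, so their probe sets may share signal. The 8 members without a call lay between -0.44 and 0.29, among them CEPD1 (-0.34) and CEPD2 (0.22), which carry nitrogen signals from shoot to root, and GRXC11 at 1 to 3 on all 6 arrays. The median of the 14 was 0.26.

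Genes of the low-oxygen response had 5 lower calls and 1 higher among 15 measured of 32, against backgrounds of 2.61% and 2.51%. AT1G33055 fell to 89, 86 and 46 at 35 min, against 576, 215 and 247 at 0 min (-1.81 ± 0.29, adjusted p = 0.00032, limma). AT4G10270 had 52, 23 and 47 at 35 min, against 245, 106 and 122 at 0 min (-1.42 ± 0.23). HRA1, a trihelix factor that restrains the hypoxia response, had 63, 50 and 57 at 35 min, against 157, 110 and 118 at 0 min (-0.89 ± 0.14). Each of these genes was highest in replicate 1 at 0 min, and each was still called without that replicate. AT4G17260, a lactate dehydrogenase gene, had -0.51 ± 0.10, and the kelch-repeat gene AT3G27220 had -0.43 ± 0.12 but was not called without replicate 1 (-0.26, adjusted p = 0.48, limma) or without replicate 3. AT5G66985 was the higher member, with 2188, 1478 and 1575 at 35 min, against 1120, 974 and 1089 at 0 min (0.69 ± 0.14). The list moved with replicate 1 itself: the median member was 0.38 above replicates 2 and 3 at 35 min and 0.74 above them at 0 min, in log2, and the part of this in the calls was not tested beyond the fits without it. Its median response was -0.34 with and -0.16 without replicate 1. PDC2, a pyruvate decarboxylase of fermentation, had -0.03 ± 0.15.

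Hormone, iron and stress lists were small. ARL and GH3.5, an enzyme that conjugates auxin to amino acids, were the called members among 5 measured auxin genes, and GH3.5 had 273, 252 and 298 at 35 min, against 344, 499 and 460 at 0 min (-0.60 ± 0.14). GH3.5 was called without replicate 1 but not without replicate 2 or 3. The cytokinin response regulators ARR15 (-0.53 ± 0.28) and ARR16 (-0.23 ± 0.25) were not called. SUFE2, which feeds sulfur into iron-sulfur cluster assembly, had 593, 217 and 170 at 35 min, against 1942, 626 and 536 at 0 min (-1.54 ± 0.36, adjusted p = 0.013, limma), and was brightest in replicate 1 at each time. It was called without replicate 1 (adjusted p = 2.5e-06, limma) and not without replicate 2. The iron regulators PYE (-0.33 ± 0.14) and BHLH101 (-0.48 ± 0.29) were not called. ZAT10, a zinc finger repressor of stress responses, fell to 418, 385 and 337 at 35 min, against 865, 749 and 740 at 0 min (-1.0 ± 0.12, adjusted p = 1.5e-05, limma). WRKY53 had 188, 234 and 218 at 35 min, against 311, 367 and 313 at 0 min (-0.58 ± 0.14), a call lost without any 1 of the 3 replicates, and CML39, a calmodulin-like gene, had 0.36 ± 0.23 and no call.

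Families were also taken by the form of the gene symbols, and their counts stand against 5.12% of all probe sets called, 2.51% higher and 2.61% lower. SWEET16, a vacuolar sugar transporter, was the called member of 14 SWEET genes, with 3484, 3363 and 3527 at 35 min, against 1796, 2004 and 1721 at 0 min (0.90 ± 0.13). TET8 was the called member of 15 tetraspanins (-0.53 ± 0.10). Among 27 expansin and xyloglucan-modifying XTH genes, which loosen and remodel cell walls, EXLA3 (0.89), EXLA1 (0.86) and XTH20 (0.63) were higher and XTH33 (-0.82), EXPA8 (-0.51), XTH19 (-0.43) and EXPA15 (-0.37) lower, and EXLA3, EXPA8 and EXPA15 were not called without replicate 1. Of 22 cytochrome P450 genes with a subfamily letter in the symbol, which leaves out CYP718, CYP78A9 was higher (1.09) and CYP71B23 lower (-0.90). Of 47 UDP-glycosyltransferases UGT72E1 (-1.29), UGT76C2 (-0.67) and UGT72E2 (-0.49) were lower, the first and last being enzymes that glucosylate lignin precursors, and UGT72E2 was not called without replicate 1. GSTU21 was the called member of 11 tau glutathione transferases (0.72) and was not called without replicate 1. None of the 64 plastid-encoded genes measured was called, and their median was -0.27 with and -0.09 without replicate 1, in which the median gene was 0.72 above the others at 0 min and 0.25 at 35 min. The medians of the other 6 families lay between -0.14 and 0.10.

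**Figure D3:**
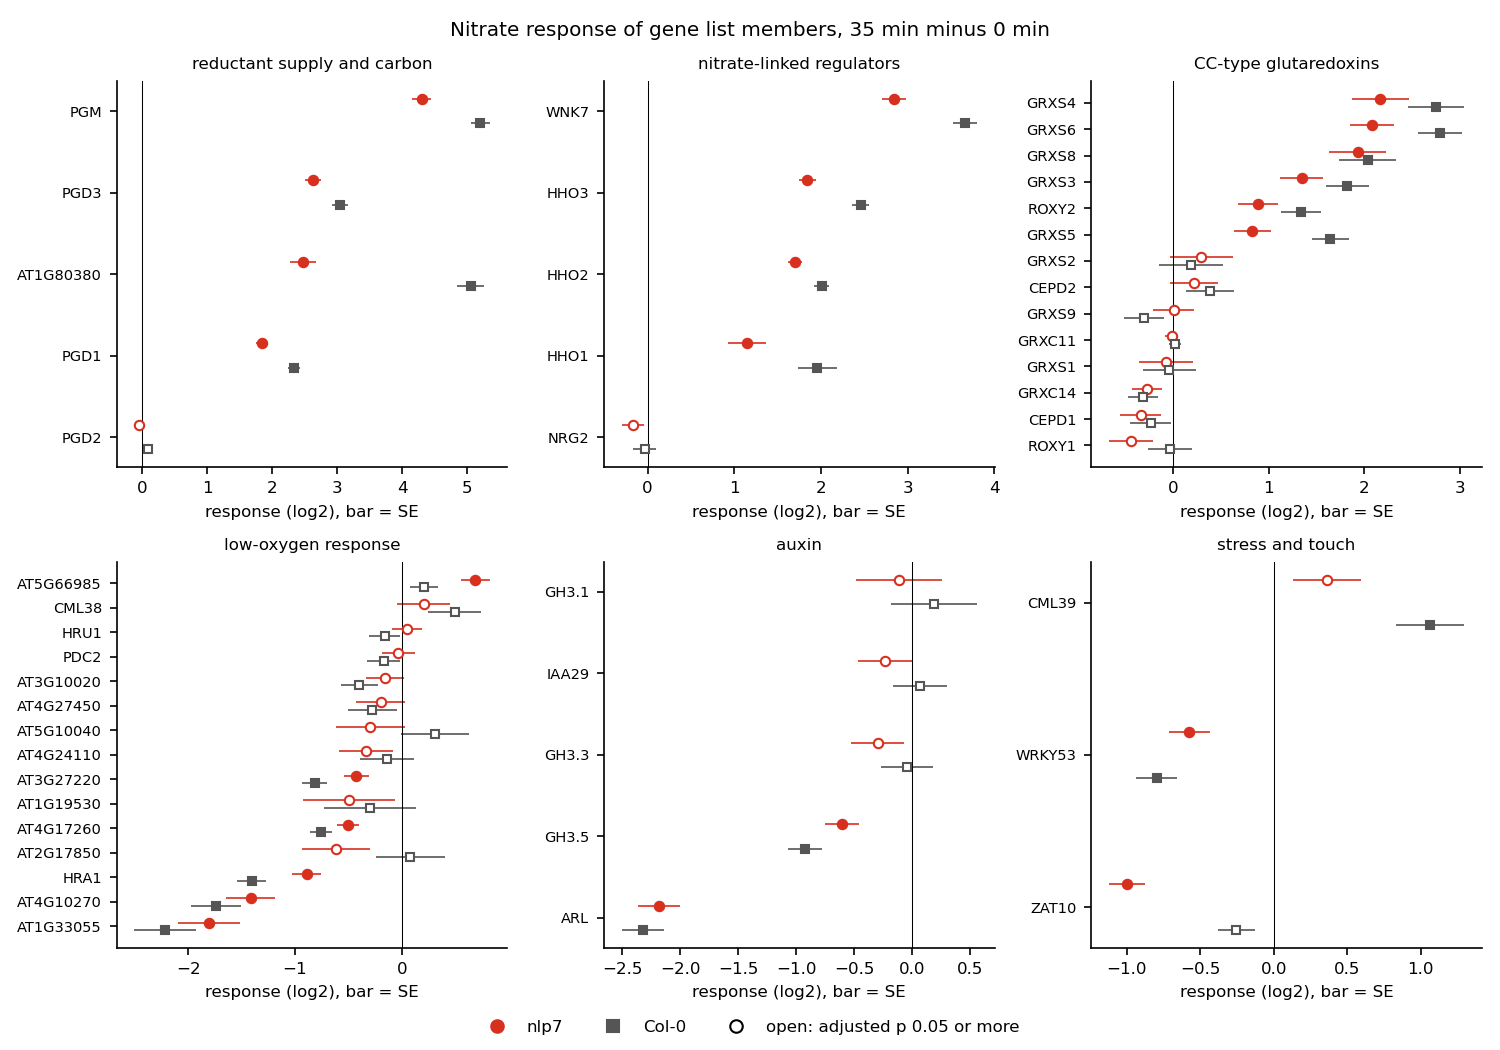
Log2 responses, 35 min minus 0 min, of the measured members of 6 gene lists in nlp7 (red circles) and Col-0 (grey squares), with standard errors from limma and open symbols where the adjusted p was 0.05 or more. PGM, PGD3, AT1G80380, PGD1, WNK7 and HHO1 to HHO3 lie to the right of 0 in both genotypes, while AT1G33055, AT4G10270, HRA1 and ARL lie to the left.

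The response of nlp7 largely held the same genes as that of the wild type and was smaller in size. In Col-0 2306 probe sets (10.2%) were called, and in nlp6 2336 (10.3%). Of the 571 probe sets higher in nlp7, 523 (91.6%) were also called higher in Col-0, where they made up 49.5% of the 1056 higher calls (4.65% of all probe sets). Of the 592 lower in nlp7, 477 (80.6%) were also called lower in Col-0, 38.2% of its 1250 lower calls (5.5%). The sign was the same in Col-0 for 567 of the 571 and 579 of the 592, while 42.3% and 57.5% of all probe sets had a positive and a negative response there. In nlp6 511 (89.5%) of the higher and 466 (78.7%) of the lower ones were called, making up 54.5% of the 938 higher (4.13%) and 33.3% of the 1398 lower calls (6.15%) of that mutant. The 15 most induced genes of nlp7 each had a response nearer 0 than in Col-0 and than in nlp6, with differences from Col-0 between -2.59 and -0.02. Since they were chosen for their responses in nlp7, these signs are a description.

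To compare sizes, probe sets were taken by their called response in nlp6, a value that rests on no nlp7 or Col-0 array. The call itself used a spread pooled over the arrays of every genotype, so scatter on nlp7 and Col-0 arrays had a part in the choice. The choice may also favour genes that respond where NLP7 is not mutated, which would lower the share of nlp7 in the Col-0 value. Neither effect was tested. The 381 probe sets (1.68%) called at least 2-fold higher in nlp6 had a median response of 1.04 ± 0.05 in nlp7 and 1.51 ± 0.05 in Col-0. These are means and SDs of 3 medians, each over differences of a 35 min and a 0 min array of the same number. The medians of the fitted responses were 1.05 in nlp7 and 1.52 in Col-0, a share of 69.2% of the Col-0 value. Shares over all replicates below are ratios of such fitted medians, and not of the means of 3 medians. The highest of the 3 nlp7 values was 1.1 and the lowest of the 3 Col-0 values 1.46. Without replicate 1 the share was 68.6%. Of the 381, 311 (81.6%) were called in nlp7 and 365 (95.8%) in Col-0, and 93.7% had a smaller response in nlp7 than in Col-0. Among induced probe sets this share of the log2 value was larger for larger responses. It was 61.2% for the 258 probe sets changed 2 to 4-fold in nlp6, 73.0% for 82 changed 4 to 8-fold and 76.4% for 41 above 8-fold. The medians were 0.81, 1.68 and 2.76 in nlp7 and 1.25, 2.32 and 3.6 in Col-0. The gap at 35 min grew as well, with median differences of nlp7 from Col-0 of -0.38, -0.48 and -0.69 in log2. A larger log2 share is thus not a smaller loss in fold change. The 206 probe sets (0.907%) at least 2-fold lower in nlp6 had -0.91 in nlp7 and -1.19 in Col-0 as means of 3 medians. Their fitted medians were -0.89 and -1.18, a share of 75.4%. Among these the order of the shares was the opposite, with 77.8% for 189 changed 2 to 4-fold and 72.5% for 17 above 4-fold, or 66.4% for the 17 without replicate 1. The induced probe sets were lower in nlp7 than in Col-0 at 35 min, by a median of -0.42, and near equal at 0 min, at 0.03. For the lowered ones both times differed, at 0.14 and -0.16. In the double mutant the induced probe sets had 1.01 ± 0.05, so nlp7 and nlp6nlp7 lay within a replicate's spread of each other.

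**Figure D4:**
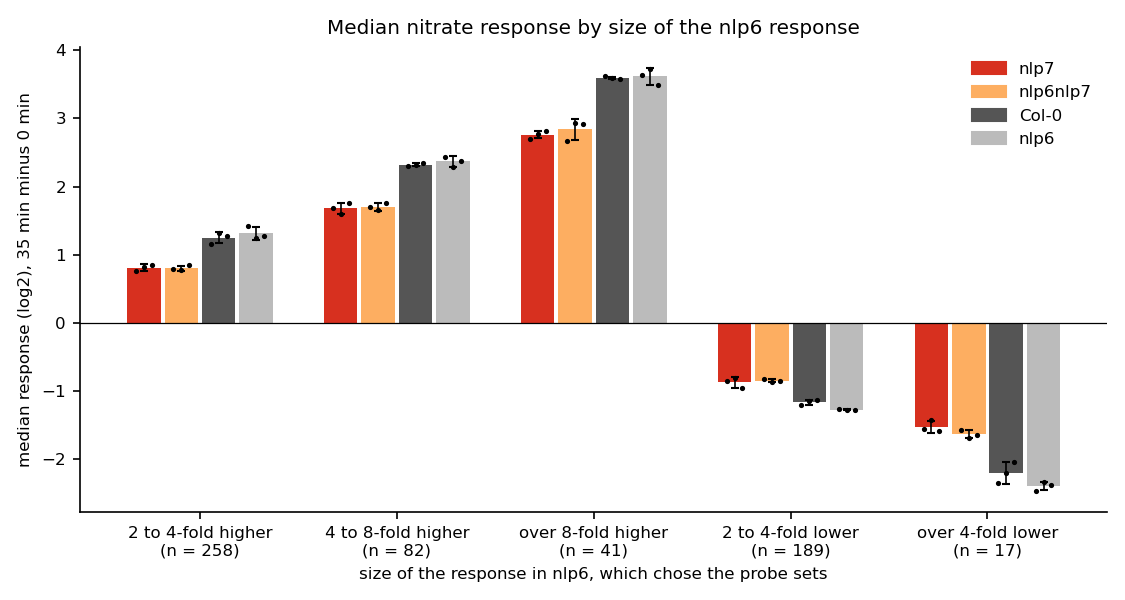
Median log2 response, 35 min minus 0 min, in nlp7 (red), nlp6nlp7 (orange), Col-0 (dark grey) and nlp6 (light grey) of probe sets grouped by the size of their response in nlp6, so that the nlp6 bars are fixed by the choice. Bars are means and error bars SDs of 3 differences between arrays of the same replicate number, shown as points. The nlp7 bars stand at 0.81, 1.68 and 2.76 for the induced groups, below 1.25, 2.32 and 3.6 in Col-0.

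The test of the difference between the responses of nlp7 and Col-0 called 60 probe sets (0.264%) by limma at an adjusted p under 0.05, 50 of them lower (0.22%) and 10 higher (0.044%). The Col-0 response was itself called for 59 of the 60 and the nlp7 response for 44. At 35 min 54 of the 60 differed between nlp7 and Col-0, where 1.25% of all probe sets did, and at 0 min 2 of the 60, where 0.185% did. The tested difference is built from these same responses and differences at each time, on the same arrays. Such overlaps are thus in part fixed by the choice of the 60 and are a description. The count was 15, 26 and 43 without replicate 2, 1 or 3 of nlp7 at both times, and 28 to 59 without single arrays of either genotype, so it moved with the arrays used. It was also lower than 60 in the fit with a replicate block of genotype and number, given further down. The 5 largest losses among named genes were AT1G80380, AT5G53750, AT5G52050, AT5G26200 and AT5G54170.

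The glycerate kinase gene AT1G80380 was the most affected of them while still among the most induced genes of nlp7. Against its 1550, 1208 and 1337 in nlp7 at 35 min stood 5964, 5319 and 6675 in Col-0, and at 0 min nlp7 had 329, 193 and 175, against 150, 145 and 168 in Col-0. Its response was 2.47 ± 0.20 in nlp7 and 5.06 in Col-0, a difference of -2.59 ± 0.29 (adjusted p = 0.00028, limma). AT5G53750, a CBS domain gene, had 115, 145 and 83 at 35 min and 124, 180 and 88 at 0 min in nlp7, with overlapping times, while Col-0 had 807, 627 and 729 at 35 min and 172, 85 and 117 at 0 min. The difference in response was -2.48 ± 0.36 (adjusted p = 0.0036, limma), and the response in nlp7, -0.14 ± 0.25, was not called. AT5G26200, of the mitochondrial carrier family, had 30, 19 and 20 at 35 min and 1, 3 and 2 at 0 min in nlp7, against 133, 153 and 203 at 35 min and 3, 1 and 7 at 0 min in Col-0. Its induced level in nlp7 lay near the pseudocount of 26, so the size of the response depends on it (2.37 at 3, and 0.26 without a call at 103), and the difference was -1.86 ± 0.20 (adjusted p = 0.00026, limma). AT5G52050, a MATE-type efflux carrier, had 79, 78 and 111 at 35 min and 39, 8 and 28 at 0 min in nlp7, against 251, 418 and 250 at 35 min and 10, 12 and 8 at 0 min in Col-0 (difference -1.95 ± 0.36, adjusted p = 0.019, limma). AT5G54170 had 2345, 1896 and 2461 at 35 min in nlp7, against 4540, 6120 and 4301 in Col-0 (difference -1.42 ± 0.26, adjusted p = 0.019, limma). The differences of AT1G80380 and AT5G26200 were called under every alternative and array left out, and that of AT5G53750 under all but the fit to only the arrays compared (adjusted p = 0.052, limma). Those of AT5G52050 and AT5G54170 were not called without replicate 1 (adjusted p = 0.15 and 0.085, limma).

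The 5 named genes with the highest difference were lowered in Col-0, and of these AT4G17670, AT2G19310 and AT4G23870 were lowered less in nlp7. AT4G17670 had 298, 249 and 249 in nlp7 at 35 min, against 197, 192 and 167 in Col-0, and 797, 848 and 1127 in nlp7 at 0 min, against 1634, 1472 and 1318 in Col-0 (difference 1.13 ± 0.23, adjusted p = 0.044, limma). AT2G19310, a small heat shock protein-like gene, had 265, 211 and 226 in nlp7 at 35 min, against 129, 142 and 166 in Col-0, and 521, 576 and 647 in nlp7 at 0 min, against 699, 714 and 708 in Col-0 (0.88 ± 0.15, adjusted p = 0.015, limma). AT4G23870 had a response of -0.57 in nlp7 and -1.46 in Col-0. AT1G11700 had 0.10 in nlp7 and -0.94 in Col-0, and AT3G16990, a thiaminase-like gene, 0.36 in nlp7 and -0.43 in Col-0, without a call in nlp7 for either. Calls of these 5 differences were lost under 7 to 19 of the alternatives each, among them the fits without replicate 2.

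**Figure D5:**
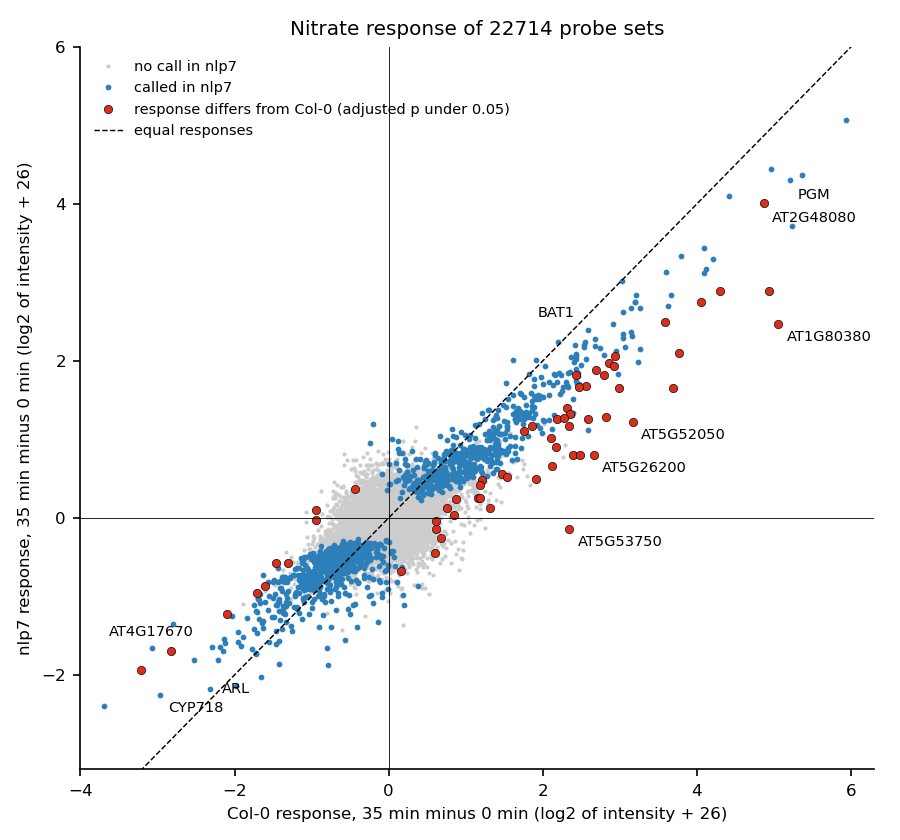
Log2 response, 35 min minus 0 min, of 22714 probe sets in nlp7 (vertical axis) and Col-0 (horizontal axis), in log2 of intensity + 26. Blue points are the probe sets called in nlp7, red points the 60 whose responses differ between the genotypes, and the dashed line marks equal responses. AT1G80380 lies at 2.47 in nlp7 and 5.06 in Col-0, and AT5G53750 at -0.14 in nlp7 and 2.34 in Col-0.

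Against nlp6 63 differences (0.277%) were called, 51 lower (0.225%) and 12 higher (0.0528%). AT1G80380 (-2.42 ± 0.29), AT5G53750 (-2.12 ± 0.36) and AT5G26200 (-1.67 ± 0.20) were lower in response than in nlp6 as well as than in Col-0. PGM (-1.10 ± 0.20, adjusted p = 0.019, limma) and WNK7 (-1.17 ± 0.20, adjusted p = 0.0089, limma) were called against nlp6, while against Col-0 their differences of -0.90 ± 0.20 and -0.82 ± 0.20 were not (adjusted p = 0.083 and 0.14, limma). Against nlp6nlp7 no difference was called by limma, with a smallest adjusted p of 0.17, and 782 probe sets (3.44%) had an unadjusted p under 0.05. Alternative fits with limma called 0 to 2. Among the 15 most induced genes of nlp7, 9 had a lower and 6 a higher response than in nlp6nlp7, with differences between -0.54 and 1.1. AT1G80380 marked the upper end, with a response of 2.47 in nlp7 and 1.37 in nlp6nlp7, and 692 ± 126 at 35 min and 254 ± 63.3 at 0 min in the double mutant (SD, n = 3). In nlp6nlp7 1229 probe sets (5.41%) were called, 548 higher (2.41%) and 681 lower (3%). They include 430 of the 571 higher ones of nlp7 (75.3%, and 78.5% of the 548) and 385 of the 592 lower ones (65.0%, and 56.5% of the 681).

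Responses called in nlp7 and not in Col-0 were seldom called as differences from Col-0. Of the 1163 probe sets called in nlp7, 162 were not called in Col-0, and 88 of these were called in none of the other genotypes. The test of the difference has larger standard errors than that of a response and called 0.264% of all probe sets. A missing call there thus does not show that a response is shared. The difference from Col-0 itself was called for 1 of the 162. That probe set, 247696_at, has no gene name and was singled out for this, with 1905, 1957 and 1630 at 35 min in nlp7, against 3126, 2982 and 2712 at 0 min (-0.68 ± 0.11). In Col-0 its response was 0.16. A single response called in both genotypes ran the other way in Col-0. AT1G79160, singled out for that, had 535, 557 and 572 at 35 min and 900, 718 and 684 at 0 min in nlp7, against 1161, 1256 and 1137 at 35 min and 731, 847 and 746 at 0 min in Col-0. Its response in nlp7 was -0.44 (adjusted p = 0.025, limma), and without replicate 1 it was -0.30 and not called (adjusted p = 0.32, limma). Its difference in response was -1.04 (adjusted p = 0.0056, limma).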

How the data were processed

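Roots of 4 genotypes at 2 times were measured on 24 ATH1 arrays, and 6 of them (nlp7) are the subject. The authors deposited intensity values per probe set, linear whole numbers between 1 and 36178, with a trimmed mean near 500 on every array (500.1 to 500.5). Their summarising software is not given in these labels or headers. Of 22776 probe sets 62 controls were left out and 22714 tested. Of these, 13490 match 1 gene in the platform table, 503 several and 8721 none, and symbols come from RefSeq (TAIR10.1). No build is named in the array table, so coordinates are not given, and promoters were not analysed here.

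The deposited intensity was converted to log2(intensity + 26), 26 being the 20th percentile of all values. A group-means model over all 24 arrays (limma 3.58.1, R 4.3.3, 16 residual degrees of freedom, moderated variances) gave two-sided contrasts, adjusted by Benjamini-Hochberg. It was tested on simulated data. Named genes are those with 1 match. They hold the 15 highest and 15 lowest called nlp7 responses whose arrays do not overlap. The 5 highest and 5 lowest called differences from Col-0 and from nlp6nlp7 (none for the last) were added. So were the 5 furthest above and below in replicate 1 at both times, by the smaller of the distances at the 2 times. The rest are members of 13 lists by locus, which include 3 marker lists, and of 7 by symbol or plastid origin. The members and lists were chosen with earlier results of these data known. Same-numbered nlp7 arrays deviated together at 0.469, 0.0674 and 0.338, under 0.1 in 1 pair, so the numbers were not taken as pairs in the main fit. Fits with a replicate block are given further down. The SDs of the size comparison do rest on differences between arrays of the same number. Alternatives were other scalings, pseudocounts (3 and 103), filters on dim probe sets, variance settings, array weights, only the arrays compared, replicate blocks, 1 probe set per gene, and arrays left out. Arrays carry no read depth; their number limits the precision. Tables were made in Python 3.11.15 (pandas 2.3.3, numpy 2.4.6), and plots with matplotlib 3.10.9.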

Additional observations from a re-analysis of the deposited data

Results flagged for a closer look

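The response to nitrate differed between nlp7 and another genotype, by limma's test of the difference itself at an adjusted p under 0.05, for 19 of the genes named above by the rules and lists. AT1G79160, singled out above by its values, is not counted among them and differed from Col-0 too (-1.04). Values are differences in log2 response, nlp7 minus the other genotype. Against both Col-0 and nlp6 the response of nlp7 was lower for AT1G80380 (-2.59 against Col-0 and -2.42 against nlp6), AT5G53750 (-2.48 and -2.12), AT5G26200 (-1.86 and -1.67), AT5G54170 (-1.42 and -1.24), AT5G28610 (-1.09 and -1.96) and AT2G48080 (-0.86 and -0.95). Against Col-0 alone it was lower for AT5G52050 (-1.95) and AT1G49500 (-1.30). It was higher against Col-0, where each of these genes was called lower, for AT4G17670 (1.13), AT1G11700 (1.04), AT4G23870 (0.89), AT2G19310 (0.88) and AT3G16990 (0.80). Against nlp6 alone it was lower for AT3G07350 (-1.98), WNK7 (-1.17), PGM (-1.10) and BAT1 (-0.50), and higher for HRA1 (1.26) and CYP718 (1.14). A call against a single genotype does not show that Col-0 and nlp6 differ from each other, which was not tested here.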

How the results depend on the processing

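Fitted to only the arrays compared, nlp7 had 408 calls, 275 higher and 133 lower, with 9 differences from Col-0 and 14 from nlp6. With 1 probe set per named gene, which tests fewer probe sets, these counts were 532, 277, 255, 21 and 31. Leaving out arrays gave 769 to 1118 calls, 418 to 536 higher and 341 to 582 lower, 15 to 59 differences from Col-0 (28 to 59 for single arrays), 33 to 92 from nlp6 (37 to 92) and 0 from nlp6nlp7. Without nlp7 replicates 1, 2 and 3 at both times, the lower calls were 414, 361 and 341, the differences from Col-0 26, 15 and 43 and those from nlp6 48, 33 and 56, and 386 were lower without replicate 3 at 35 min. With the replicate block of genotype and number there were 1351 calls, of which 1045 were also called without it, and 22 differences from Col-0, and with the number alone as block 1168 calls and 1 difference from nlp6nlp7. Among the genes furthest from the others in replicate 1, that first block called AT5G64120 (adjusted p = 0.029), AT1G26390 (0.028), AT1G26380 (0.0068), AT4G37850 (0.00086) and AT1G66860 (0.0072) by limma. In the fit of 24 arrays without a block none of the 5 was called, and without replicate 1 AT4G37850 was (0.0095). In nlp7 replicates 1 and 3 at 35 min correlated best with their own number at 0 min, and replicate 2 with number 3. Differences from nlp6 were 132 with a pseudocount of 103, 114 without the dimmest 50% and 117 with a trended variance, and those from nlp6nlp7 were 2 under each. The causes were not tested. Among named genes 57 responses were called, 38 of them under every alternative run (20 to 22 each), and none reversed.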

Other observations

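Of the 60 probe sets whose response differed between nlp7 and Col-0, 16 were called in Col-0 and not in nlp7, and 5 of those carry 1 gene name beside AT5G53750. They were picked with their values in view. AT2G36470 had 70, 120 and 106 at 35 min and 83, 82 and 94 at 0 min in nlp7, against 262, 307 and 223 at 35 min and 116, 69 and 90 at 0 min in Col-0. AT5G15640, of the mitochondrial carrier family as AT5G26200 is, had 883, 815 and 942 at 35 min and 769, 686 and 771 at 0 min in nlp7, against 1217, 1129 and 1245 at 35 min and 637, 594 and 692 at 0 min in Col-0. TUA1, an alpha-tubulin gene known from pollen, had 156, 167 and 155 at 35 min and 214, 189 and 185 at 0 min in nlp7, against 279, 267 and 260 at 35 min and 134, 169 and 174 at 0 min in Col-0. The others were AT1G11700 and AT3G16990, given above. The nlp7 response of these 5 had an adjusted p of 0.08 to 0.87 (limma).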
